A study of Mus musculus with 6 samples.

Results

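The adhesion G protein-coupled receptors (GPCRs) described here are 10 genes of 1 receptor family, Adgrg1, Adgrg2, Adgrg3, Adgrg5, Adgrg6 and Adgrg7 of the Adgrg group and Adgre1, Adgre5, Adgrl1 and Adgrl4 outside it. They were picked with the values of these arrays in view, as a group in which Adgrg genes were set against the others for their difference between Cre and empty vector (EV). Of the 10, 9 had a probe set assigned to that gene alone, out of 19733 genes measured. Each of the 9 was represented by a single probe set. Adgrg5 was not matched to a probe here and has no value.

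The cells were mouse bone marrow pre-B cells with floxed alleles of Ppp2r1a, which encodes the PP2A (protein phosphatase 2A) scaffold, transformed by transduction of the BCR-ABL1 oncogene. The Cre group (3 arrays) had then received a Cre vector for the deletion of Ppp2r1a, and the EV group (3 arrays) an empty vector. Both groups therefore carried the floxed alleles, BCR-ABL1 and a second vector, although the labels give the genotype of the EV cells as wild type. There were no arrays of Cre in cells without floxed alleles, so an effect of Cre itself and the loss of Ppp2r1a cannot be told apart. The sources used here give no strain, age or sex of the mice, no time after Cre and no number of cultures. The arrays of a group may therefore be technical repeats, and p-values cover only the spread among them. Values are log2 expression levels, so that 1 unit is a 2-fold difference, and a difference is always Cre minus EV.

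Adhesion GPCRs combine a long extracellular part, often built of adhesion domains, with the membrane-spanning core of a GPCR. Most carry a GAIN domain, at which the receptor cleaves itself during maturation, and the short stretch left at the start of the membrane part can act as a tethered agonist once the outer part is pulled off by a ligand. In blood cells, family members are known as surface markers (the product of Adgre1 on macrophages, and CD97, encoded by Adgre5, on many leukocytes) and as receptors for matrix and for other cells.

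Adgrg5, Adgrg1 and Adgrg3 are 3 neighbouring protein-coding genes on chromosome 8, and the pair of them that was measured, Adgrg1 and Adgrg3, was lower in the Cre cells. The promoter windows of these 3 genes run from 250 bases before to 50 bases after the annotated start. They are shown because the genes lie side by side and the measured pair moved the same way. The window of Adgrl1, a member on the same chromosome outside the group and also lower in Cre, is shown beside them. The sequences are from RefSeq (GRCm38.p6), in which 8 of the 10 members were matched to 9 windows, while Adgre1 and Adgre5 were not matched. Capitals mark the E-box CANNTG and the core RUNX motif TGTGGT, on both strands.
Adgrg5, chr8:94923444-94923743, plus strand: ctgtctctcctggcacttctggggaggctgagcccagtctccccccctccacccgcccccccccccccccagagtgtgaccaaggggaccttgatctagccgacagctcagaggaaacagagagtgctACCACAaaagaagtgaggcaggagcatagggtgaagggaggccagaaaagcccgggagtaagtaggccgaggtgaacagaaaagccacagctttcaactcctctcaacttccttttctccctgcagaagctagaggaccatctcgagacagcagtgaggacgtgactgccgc
Adgrg1 (upstream start), chr8:94976859-94977158, plus strand: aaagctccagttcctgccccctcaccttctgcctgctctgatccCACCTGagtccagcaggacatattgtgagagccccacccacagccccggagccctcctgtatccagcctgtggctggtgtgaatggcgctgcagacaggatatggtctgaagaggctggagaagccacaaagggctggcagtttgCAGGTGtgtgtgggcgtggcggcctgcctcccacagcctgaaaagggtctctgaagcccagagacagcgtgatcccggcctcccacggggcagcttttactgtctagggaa
Adgrg1 (downstream start), chr8:94984149-94984448, plus strand: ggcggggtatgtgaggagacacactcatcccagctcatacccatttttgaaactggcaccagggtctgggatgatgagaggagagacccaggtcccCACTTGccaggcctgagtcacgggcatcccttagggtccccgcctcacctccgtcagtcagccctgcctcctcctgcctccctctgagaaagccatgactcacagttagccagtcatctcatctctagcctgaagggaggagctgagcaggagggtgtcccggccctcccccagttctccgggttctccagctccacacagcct
Adgrg3, chr8:95017442-95017741, plus strand: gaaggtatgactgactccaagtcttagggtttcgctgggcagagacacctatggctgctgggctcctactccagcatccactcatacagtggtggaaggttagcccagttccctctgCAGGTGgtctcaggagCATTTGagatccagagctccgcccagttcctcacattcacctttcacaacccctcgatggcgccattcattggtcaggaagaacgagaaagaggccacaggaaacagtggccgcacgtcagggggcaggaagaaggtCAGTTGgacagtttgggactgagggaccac
Adgrl1, chr8:83899848-83900147, plus strand: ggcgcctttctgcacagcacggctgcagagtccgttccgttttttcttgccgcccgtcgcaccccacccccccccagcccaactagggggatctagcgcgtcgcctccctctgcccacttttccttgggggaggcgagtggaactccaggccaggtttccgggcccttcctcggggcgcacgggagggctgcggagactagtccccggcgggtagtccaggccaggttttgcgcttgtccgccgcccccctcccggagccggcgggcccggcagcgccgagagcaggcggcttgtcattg

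The E-box, a site that basic helix-loop-helix factors can bind, was present in 7 of the 9 member windows and in 72.3% of all 32851 promoter windows. Adgrg3 held 3 matches, the upstream and downstream windows of Adgrg1 held 2 and 1, and the windows of Adgrg5 and Adgrl1 held 0. The RUNX core was found in 1 member window, that of Adgrg5, and in 16.8% of all windows. The GC-box GGGCGG was found in 6 member windows, those of Adgrg5, Adgrg3 and Adgrl1 among them, and in 35.7% of all. The windows also differed in base composition: that of Adgrl1 was 70.0% G or C with 28 CG pairs, and that of Adgrg3 55.7% with 7 CG pairs, where the median window had 52.7% and 7 pairs. A match is a description of the letters and not evidence of binding.

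Adgrg3, Adgrg7 and Adgrg1 were lower in the Cre cells than in the EV cells, whereas Adgrg2 and Adgrg6 differed little. Since the members were chosen on this contrast, their differences are given as a description, with standard errors (SE) but no test. The median difference of the 5 measured Adgrg genes was -0.50 and that of the 4 other members 0.10, where the median over all genes was -0.003. The ranges of the 2 groups were apart for 5 of the 9 members, against 22.5% of all genes. In 4 of them Cre was lower, as in 12.2% of all genes, and in 1 it was higher, as in 10.3%, and nothing is read from these shares.

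Adgrg3 encodes GPR97, a receptor of granulocytes and lymphocytes that was also cloned as Pb99, a transcript of early lymphocytes. It read 8.03, 8.01 and 7.99 in the Cre arrays, against 8.81, 8.87 and 8.78 in the EV arrays. The 6 arrays formed a tight group for each vector with a gap of 0.75 between them. The difference was -0.81 (SE 0.06), or 1.75-fold lower in the Cre cells. Its within-group spread was small, with an SD of 0.02 in Cre and 0.04 in EV (n = 3 each).

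Adgrg1 encodes GPR56, a receptor for collagen III that is known to signal through G12 and G13 proteins to RhoA and marks haematopoietic stem cells and cytotoxic lymphocytes. It read 8.01, 7.89 and 7.79 in the Cre arrays, against 8.43, 8.26 and 8.50 in the EV arrays. All 3 Cre values lay under the lowest EV value, by 0.25. The difference was -0.50 (SE 0.09), 1.42-fold lower in the Cre cells.

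Adgrg7 encodes GPR128, known from the intestine. It read 3.86, 3.60 and 3.31 in the Cre arrays, against 4.25, 4.25 and 4.38 in the EV arrays. The groups did not overlap, and the Cre arrays were spread over 0.55 where the EV arrays were spread over 0.13. The difference was -0.70 (SE 0.13). Every one of these values lay below the median of its array (5.22 to 5.27), so whether the gene is expressed in these cells cannot be read from them, and a dim level understates a fold.

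The remaining Adgrg members were dim and overlapped between the groups. Adgrg6, or GPR126, which is needed for myelination by Schwann cells, read 3.43, 3.83 and 3.54 in the Cre arrays, against 4.07, 3.44 and 3.50 in the EV arrays, a difference of -0.07 (SE 0.18). One EV array stood above all the others. Adgrg2, or GPR64, a receptor of the epididymis, read 3.31, 2.93 and 3.07 in the Cre arrays, against 3.12, 2.92 and 3.23 in the EV arrays, a difference of 0.01 (SE 0.12). The sign of both differences turned when single arrays were left out.

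**Figure D1:**
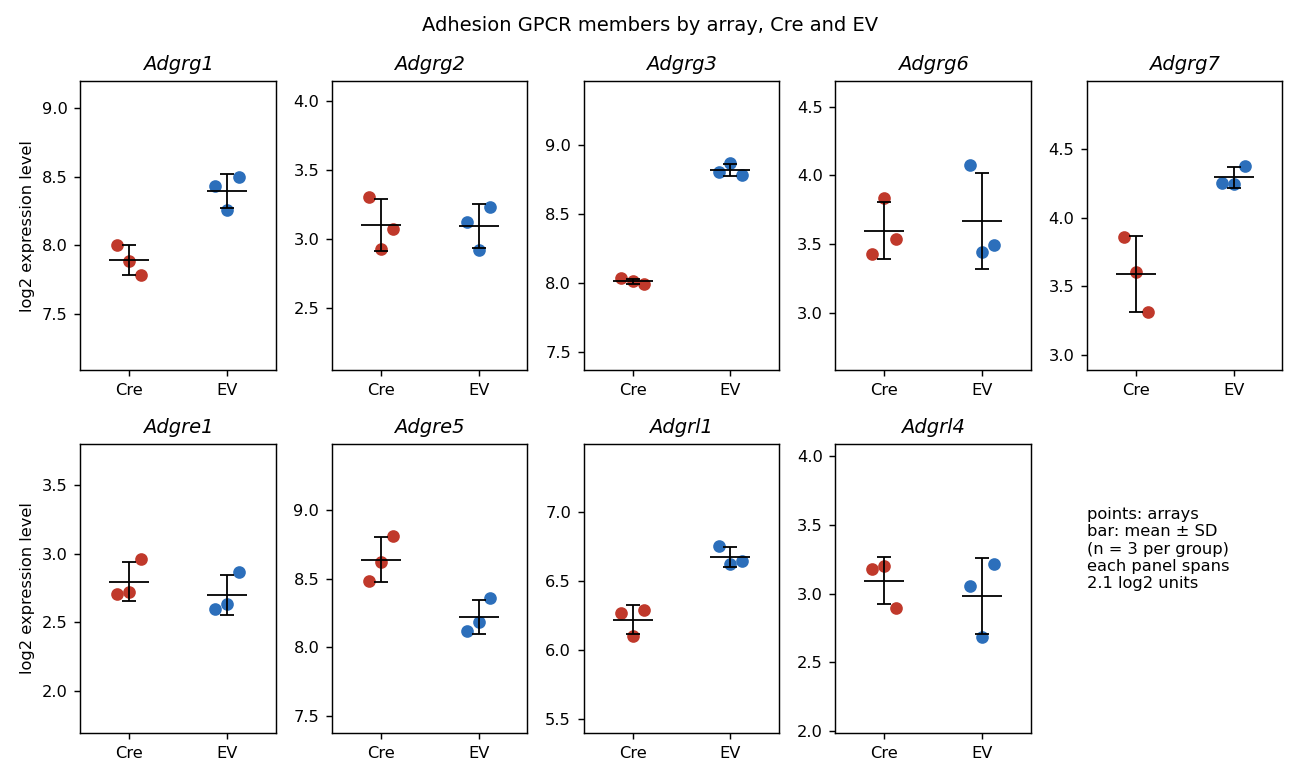
Log2 expression level (y axis) of the 9 measured members in each Cre and EV array (points), with the mean and SD of 3 arrays per group; every panel spans 2.1 log2 units, so distances can be compared between panels but levels cannot. Cre arrays lay below EV arrays for Adgrg1, Adgrg3, Adgrg7 and Adgrl1, above them for Adgre5, and among them for the other 4.

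Among the members outside the Adgrg group, Adgre5 and Adgrl1 were above the array medians and differed in opposite directions. Adgre5 encodes CD97, the receptor for the complement regulator CD55. It read 8.48, 8.62 and 8.81 in the Cre arrays, against 8.12, 8.18 and 8.36 in the EV arrays. The groups did not overlap but came within 0.13 of each other. Adgre5 was the member with the highest Cre minus EV difference, 0.42 (SE 0.10), 1.34-fold higher in the Cre cells.

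Adgrl1 encodes latrophilin-1, the receptor of the spider toxin alpha-latrotoxin and a partner of teneurins and FLRT proteins. It read 6.27, 6.10 and 6.29 in the Cre arrays, against 6.76, 6.62 and 6.65 in the EV arrays. All 3 Cre arrays lay below all EV arrays. The difference was -0.46 (SE 0.08), 1.37-fold lower in the Cre cells, so the sign was that of Adgrg1 and Adgrg3 and not that of Adgre5.

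Adgre1 and Adgrl4 were dim on every array. Adgre1, which encodes a classical surface antigen of macrophages, read 2.71, 2.72 and 2.96 in the Cre arrays, against 2.60, 2.63 and 2.87 in the EV arrays, a difference of 0.10 (SE 0.10). Adgrl4, an endothelial receptor also called ELTD1, read 3.18, 3.20 and 2.90 in the Cre arrays, against 3.05, 2.68 and 3.21 in the EV arrays, a difference of 0.11 (SE 0.15). Values of both genes overlapped between the groups.

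In the rest of the family, 1 of 19 measured receptors fell in the Cre cells and 0 rose. Over all genes 2.14% fell and 1.35% rose at an adjusted p below 0.05 in limma, 3.49% in both directions. Picking the members with values in view also set which genes make up the rest, so the list is not independent of that choice. The median difference of the 19 was 0.06, and 15 of them lay below the median of every array. The gene that fell was Adgrf1, which encodes GPR110, a receptor of the lipid synaptamide. Adgrf1 read 4.49, 4.11 and 4.42 in the Cre arrays, against 5.09, 5.08 and 4.92 in the EV arrays. The groups were apart, although all 6 values were under the array medians. It fell by 0.69 (SE 0.11; limma adjusted p = 0.0163), and it no longer passed with EV replicate 1 left out (adjusted p = 0.0678) or with EV replicate 2 left out (0.0671).

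Adgrl2, latrophilin-2, a relative of the members Adgrl1 and Adgrl4, had the next smallest p of the 19. Its brightest probe set read 8.06, 7.98 and 7.93 in the Cre arrays, against 8.43, 8.28 and 8.22 in the EV arrays, a difference of -0.32 (SE 0.08; limma adjusted p = 0.0823). It passed with the lowest 25% or 50% of genes left out (adjusted p 0.0473 and 0.0199) and with trend and robust settings (0.00617). With the mean of all its probe sets the difference was -0.23 (adjusted p = 0.293). Adgrl2 was covered by 8 probe sets that did not all go the same way: 7 were lower in Cre, by differences between -0.65 and -0.13, and 1 was higher, by 0.23. The annotation does not tell which part of the transcript each probe set covers.

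**Figure D2:**
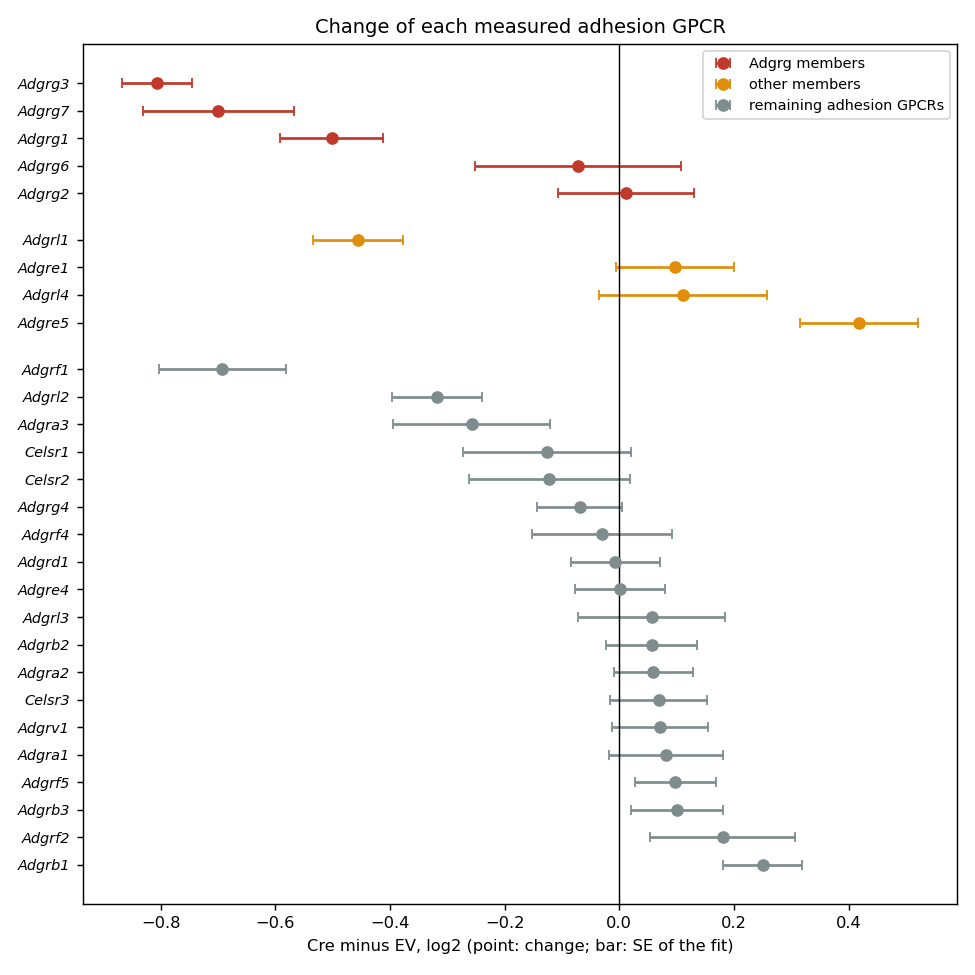
Difference between Cre and EV on the log2 scale (x axis, Cre minus EV) of each measured adhesion GPCR, with bars for the SE of the limma fit; colours give Adgrg members, other members and the remaining family. Adgrg3, Adgrg7, Adgrf1 and Adgrg1 lie furthest to the left and Adgre5 furthest to the right.

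Of 21 measured ligands and membrane partners of the members, 1 fell and 0 rose, where 2.14% of all genes fell and 1.35% rose. Nothing is read from a count of 1. The median difference of the list was -0.07. The 1 that fell was Prnp, the prion protein, whose flexible tail is an agonist of Adgrg6 in Schwann cells. Prnp read 6.94, 6.84 and 6.58 in the Cre arrays, against 7.29, 7.29 and 7.29 in the EV arrays. The Cre arrays were all lower and were more widely spread than the EV arrays. It fell by 0.50 (SE 0.10, limma adjusted p = 0.0336). This call was lost without Cre replicate 2 or 3 or any 1 of the EV arrays (highest adjusted p = 0.105). The call was also lost with the repeat number as a block (limma adjusted p = 0.0703). Tenm3, a teneurin of the kind that latrophilins bind, differed by -0.35 (SE 0.08; limma adjusted p = 0.0577) at a dim level.

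The partners of Adgrg1 and Adgre5, named here after their values were seen, gave no call. The Adgrg1 ligands Col3a1 (collagen III) and Tgm2 (transglutaminase 2) differed by -0.02 and 0.03, and the tetraspanin Cd81, which associates with Adgrg1, by -0.13. Cd55, the ligand of Adgre5, read 6.60, 6.77 and 6.24 in the Cre arrays, against 6.28, 6.06 and 5.95 in the EV arrays, a difference of 0.44 (SE 0.15; limma adjusted p = 0.182). Its groups overlapped.

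Of the heterotrimeric G proteins and effectors through which adhesion GPCRs can signal, 3 of 29 measured genes fell in the Cre cells and 1 rose, where 2.14% of all genes fell and 1.35% rose. The median difference of the list was -0.05. Gnai1, an inhibitory alpha subunit that lowers cyclic AMP, read 6.36, 6.19 and 6.27 in the Cre arrays, against 8.03, 8.06 and 8.33 in the EV arrays. It had the largest difference of the list, 3.65-fold, and fell by 1.87 (SE 0.10; limma adjusted p = 8.453e-05), a call kept under each of the 14 alternatives tried.

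Gna13, the alpha subunit that links receptors such as Adgrg1 to RhoA, went the other way. It read 9.42, 9.37 and 9.48 in the Cre arrays, against 8.98, 8.97 and 9.02 in the EV arrays. It rose by 0.43 (SE 0.06; limma adjusted p = 0.0111), with no overlap and with the call kept under the same 14 alternatives. Gna12, its closest relative, differed by 0.04, and RhoA itself (Rhoa) by 0.02. Both of these were chosen after their values were seen.

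Arrb1, which encodes beta-arrestin 1, a protein that uncouples and internalises active GPCRs, fell by 0.55 (SE 0.09; limma adjusted p = 0.0168). It no longer passed when replicate 2 or 3 of either group was left out (highest adjusted p = 0.0694). Nor did it pass with the repeat number as a block (limma adjusted p = 0.0686). Gnao1, the alpha subunit of Go, averaged 5.66 ± 0.03 in the Cre arrays and 5.98 ± 0.02 in the EV arrays (SD, n = 3 each). It fell by 0.31 (SE 0.06, limma adjusted p = 0.0329), a call lost without any 1 of the 6 arrays (highest adjusted p = 0.111). The call was also lost with the repeat number as a block (limma adjusted p = 0.107).

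**Figure D3:**
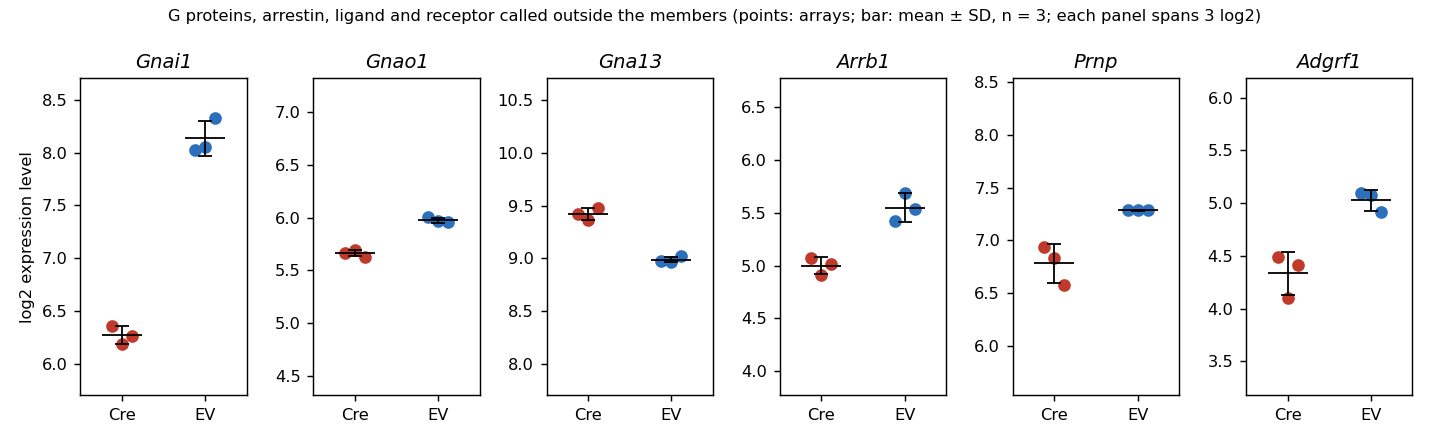
Log2 expression level (y axis) by array of the 4 G protein and arrestin genes, the ligand gene and the receptor gene that passed the test outside the members; points are arrays, bars the mean and SD of 3 arrays per group, and each panel spans 3 log2 units. Gna13 was higher in Cre and the other 5 genes were lower, with Gnai1 furthest apart.

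The genes next to the members on the chromosomes were compared in the same fit, taking the 5 nearest measured genes on each side. Members were left out of this list, and Adgrl2 is counted both here and in the rest of the family. Of 70 such genes, 3 fell in the Cre cells and 0 rose, where 2.14% of all genes fell and 1.35% rose. Nothing is read from a count this small. The median difference of the 70 was -0.02. Drc7, the first measured gene after Adgrg3, differed by -0.21 (SE 0.07; limma adjusted p = 0.218), and Ccdc102a, the first before the Adgrg5, Adgrg1 and Adgrg3 group, by -0.16 (SE 0.11). Neither passed the test. Since Adgrg1 and Adgrg3 were chosen on this contrast, nothing is read from their larger differences. Drc7 and Ccdc102a were named for their position after their values were seen.

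Gm10644, a long non-coding RNA whose annotated span overlaps that of Adgrl1, read 6.48, 6.80 and 6.60 in the Cre arrays, against 7.42, 7.29 and 7.23 in the EV arrays. It fell by 0.69 (SE 0.10; limma adjusted p = 0.0100), in the same direction as Adgrl1. Because the spans overlap, the 2 probe sets may not be independent measures. Adgre5, the protein-coding gene before Adgrl1, had a difference of the opposite sign.

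The other 2 neighbours that fell were Pdha1, of the pyruvate dehydrogenase complex, beside Adgrg2, and Adat2, a tRNA adenosine deaminase, near Adgrg6. Pdha1 fell by 0.37 (SE 0.07; limma adjusted p = 0.0328) and Adat2 by 0.36 (SE 0.07; limma adjusted p = 0.0399). Both lost the call without any 1 of the 6 arrays (highest adjusted p 0.121 and 0.141). They also lost it with the repeat number as a block (0.104 and 0.119), and Adat2 with arrays centred on their medians (0.0647). The members beside them differed by 0.01 and -0.07. Tmem45a, the gene after Adgrg7, was singled out after its values were seen: it differed by -0.65 (SE 0.16; limma adjusted p = 0.0807), was dim like Adgrg7, and did not pass.

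**Figure D4:**
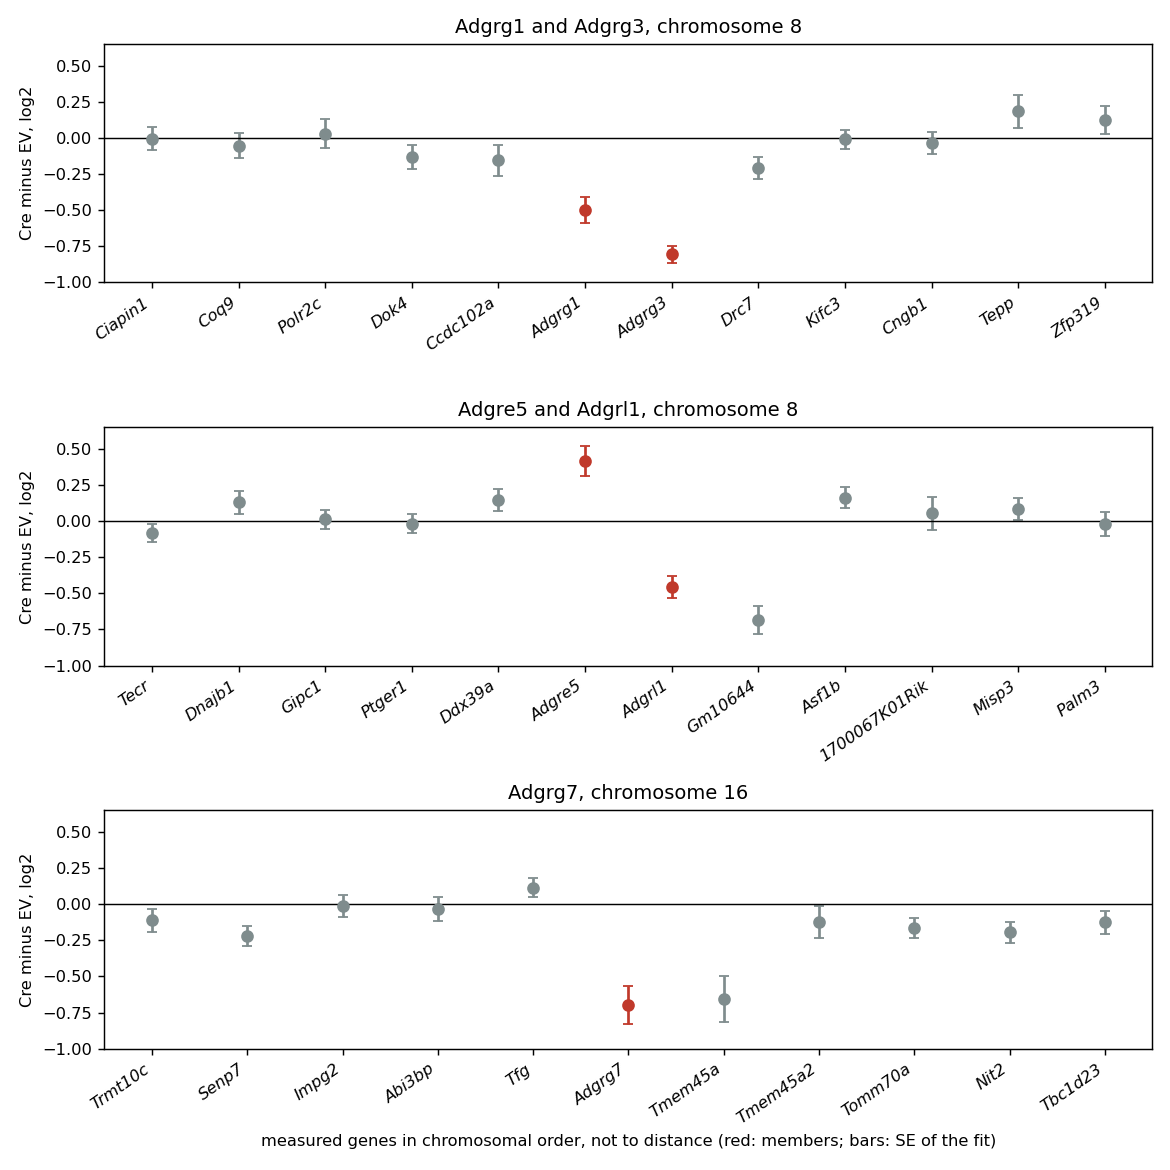
Difference between Cre and EV on the log2 scale (y axis, Cre minus EV, bars for the SE of the fit) of measured genes in chromosomal order around Adgrg1 and Adgrg3, around Adgre5 and Adgrl1, and around Adgrg7; members are red, and Adgrg5, between Ccdc102a and Adgrg1, has no value. Adgrg1 and Adgrg3, chosen on this contrast, lie lowest in their panel, Adgre5 and Adgrl1 lie on opposite sides of 0, and Gm10644 and Tmem45a lie beside Adgrl1 and Adgrg7.

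The profiles most like those of Adgrg3 and Adgrg7, the 2 members with the largest SD over the 6 arrays, were looked up by Pearson's r. The arrays fall into Cre and EV clusters, so r over 6 arrays mainly restates the difference between the groups, and no p is given. For Adgrg3 they were Mt1, a metallothionein (r = 0.9994), Gm5111 (0.9988) and Cntln, a centriolar protein (0.9988). Mt1 is on chromosome 8, as are Adgrg3 and Gnao1, outside the 5 measured genes taken on each side. Gm5111 and Cntln are on chromosomes 6 and 4. Mt1 read 7.54, 7.56 and 7.47 in the Cre arrays, against 10.46, 10.61 and 10.44 in the EV arrays, a larger difference than that of Adgrg3. For Adgrg7 they were Sap30, a subunit of a histone deacetylase complex (r = 0.9974), Gm8675 (0.9937) and Pkm, pyruvate kinase (0.9918). Pkm read 10.23, 10.08 and 9.95 in the Cre arrays, against 10.54, 10.46 and 10.54 in the EV arrays.

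Series-wide checks bear on these values as follows. Ppp2r1a itself was lower by 2.05 (SE 0.07, limma adjusted p = 1.203e-05) in the Cre cells, as the labels require. It read 7.12, 6.98 and 6.92 in the Cre arrays, against 9.06, 9.05 and 9.06 in the EV arrays. The Cre values were still above the array medians (5.22 to 5.27), and the source of this remaining signal was not tested. The 10 measured markers of pre-B cells were above the median of every array. Markers of cell types known for single members were mostly dim: 1 of 11 macrophage and monocyte markers, 0 of 15 granulocyte markers, 0 of 11 NK and T cell markers, 1 of 7 endothelial markers and 0 of 8 stem and progenitor markers lay above the median of all 6 arrays. Of these 52 genes 0 passed limma's test, where 3.49% of all genes did, and 7 had an unadjusted p below 0.05, as did 16.1% of all genes. Summed on the linear scale, the levels of the granulocyte list were 234 to 252 in the Cre arrays and 230 to 232 in the EV arrays, and those of the NK and T cell list 178 to 208 in Cre and 164 to 198 in EV. For the stem and progenitor list the sums were 154 to 163 in Cre and 145 to 151 in EV, for the macrophage and monocyte list 232 to 238 in Cre and 238 to 253 in EV, and for the endothelial list 253 to 269 in Cre and 217 to 236 in EV. A sum follows its brightest genes. The mean log2 level of the endothelial list, in which Pecam1 is the bright gene, overlapped between the groups (4.48 to 4.53 in Cre and 4.32 to 4.51 in EV). So did those of the NK and T cell list (3.765 to 3.958 and 3.681 to 3.866) and the macrophage and monocyte list (4.160 to 4.173 and 4.072 to 4.173). The means were higher in Cre without overlap for the granulocyte list (3.799 to 3.896 and 3.767 to 3.787). The same held for the stem and progenitor list (4.142 to 4.225 and 4.106 to 4.122). In the macrophage and monocyte list, in which Cd68 is the bright gene, 9 of 11 markers had a positive difference, with a median of 0.07, although the sum was not higher in Cre. Cd68 (-0.36, SE 0.08; limma adjusted p = 0.0637), Itgam (0.24), Epx (0.28), Prg2 (0.22), Gzmb (-0.18), Nkg7 (0.18), Pecam1 (0.29, SE 0.07; limma adjusted p = 0.0837), Tek (0.17), Flt3 (0.34) and Meis1 (-0.09) had the smallest p of their lists. Cd68 and Pecam1 passed with trend and robust settings (limma adjusted p 0.0175 and 0.0179), with the lowest 25% of genes left out (0.0362 and 0.0472) and with the lowest 50% left out (0.015 and 0.0193), and Cd68 also without Cre replicate 1 (0.0351). Among the pre-B markers, Rag1, a recombinase gene of antigen receptor assembly, fell in the Cre cells (difference -2.09, SE 0.12; limma adjusted p = 0.000155), and Ebf1 differed by -0.24 (SE 0.06; limma adjusted p = 0.0865), which passed with trend and robust settings (0.00092) and with the lowest 25% or 50% left out (0.0452 and 0.0169). The part of these genes in the members' values was not tested. In bulk cells, fewer cells that express a gene and less RNA per cell cannot be told apart.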

How the data were processed

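Per the labels, total RNA (Qiagen RNeasy) was made into biotin-labelled cRNA and hybridised to 1-colour Affymetrix arrays, 3 Cre and 3 EV, grouped by title. The values are log2 levels per probe set as deposited by the authors, made with RMA per the submitters' processing notes, with the version not given in the sources used here. Array medians were 5.22 to 5.27 and values 1.22 to 13.47, which fits RMA's quantile normalization. A change of all genes together cannot be seen after it, and no detection calls were used. Precision is limited by having 3 arrays per group.

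Of 25006 probe sets, 21467 had 1 gene symbol in the platform annotation, 1521 several and 2018 none. Symbols were updated by gene identifier through a RefSeq table of GRCm38.p6 (21386 matched), which was otherwise used for chromosomes and gene order. For 931 genes with several probe sets the one with the highest mean over 6 arrays was taken. The 19733 genes were fitted in R 4.3.3 by limma 3.58.1 (lmFit, then eBayes, with no block and no filter), with Benjamini-Hochberg adjustment over all genes and a threshold of 0.05. The fit was tested on simulated data with independent arrays, which cannot show the effect of technical repeats or of a shared culture. Python 3.11.15, pandas 2.3.3 and matplotlib 3.10.9 made tables and plots.

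The members and lists were chosen with earlier results of these data known. Named were all members, Ppp2r1a, up to 4 called genes of each list with the smallest p (the 2 smallest where fewer than 2 were called) and the 3 profiles most like each of 2 members. From each marker list, the 2 with the smallest p entered the alternatives. Alternatives were a block for the repeat number, median centring, a second quantile normalization, filters on the lowest 25% and 50% of genes, eBayes with trend and robust settings, array weights, the mean of all probe sets and each array left out.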

Additional observations from a re-analysis of the deposited data

How the results depend on the processing

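Of 9 measured members, Adgrg1, Adgrg3, Adgrg7, Adgrl1, Adgre5 and Adgre1 kept the sign of their difference under every alternative in which they were measured. Adgrg3 lay between -0.83 and -0.78 and Adgrg1 between -0.57 and -0.45. Adgre1, which was dim and overlapped between the groups, lay between 0.015 and 0.182 with an SE of 0.10 in the main fit. Nothing is read from its sign. Adgrg2 (-0.09 to 0.10), Adgrg6 (-0.19 to 0.13) and Adgrl4 (-0.04 to 0.23) changed sign with single arrays left out. The median of the Adgrg members stayed between -0.65 and -0.45 (without 1 array, -0.57 to -0.45). The value of -0.65 came with the lowest 25% or 50% of genes left out, when only 2 of them, Adgrg1 and Adgrg3, remained. The median of the other members was 0.01 to 0.21 without 1 array. It was -0.019 with the lowest 25% or 50% of genes left out, since 2 members, Adgre5 and Adgrl1, remained.

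The count of genes called, 689 of 19733, was 362 to 424 without 1 array and 1558 with trend and robust settings. It was 940 of the 14798 genes kept with the lowest 25% left out, and 1295 of 9866 with the lowest 50% left out. Among the remaining adhesion GPCRs it was 2 of 19 with trend and robust settings and 0 to 1 without 1 array. With the lowest 25% left out it was 2 of the 11 kept. For ligands and partners it was 4 of 21 with trend and robust settings and 0 to 1 without 1 array. With the lowest 50% left out it was 2 of the 7 kept. For G proteins and effectors it was 7 of 29 with trend and robust settings and 2 to 3 without 1 array. With the lowest 50% left out it was 10 of the 23 kept. For the chromosomal neighbours it was 5 of 70 with trend and robust settings, and 1 to 2 without 1 array. Fewer arrays or fewer genes are part of how these fits are built. Otherwise the cause was not tested.

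With the repeat number as a block, the counts were 425 for all genes, 0 for ligands and partners and 2 for G proteins and effectors. Same-numbered Cre and EV arrays did not deviate together (r of -0.01 to 0.03 over genes). With 3 arrays per group, these values cannot tell whether same-numbered samples shared a culture or batch. Not every array correlated best with its own number. Calls near the threshold, and differences of dim genes, are limited by 3 arrays per group.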
